A study of Arabidopsis thaliana with 6 samples.

Results

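The 7 genes described here are *GPT2* (AT1G61800), *GPT1* (AT5G54800), *APL3* (AT4G39210), *BAM5* (AT4G15210), *ASN1* (AT3G47340, also DIN6), *SEN1* (AT4G35770, also DIN1) and *DIN10* (AT5G20250). They were taken by locus identifier from the 32998 genes of the deposited table, as genes that respond to sugar supply or to carbon starvation. Transcript levels were measured by RNA sequencing of complete 12-day-old Arabidopsis seedlings, with 3 *mdf-1* libraries compared with 3 WT libraries, each from a separate biological replicate. The mutant *mdf-1* is a single T-DNA insertion line of *MDF*, which codes for a splicing factor, in the Columbia (Col-0) background, and WT was Col-0. Seedlings of both genotypes grew on MS plates with 1% sucrose and 1% agar under 16 h of light at 22°C and 8 h of dark at 18°C, so all 6 libraries came from plants supplied with sugar. The hour of harvest, on which several of these genes depend, is not given in the sources used here. The genes were selected on their *mdf-1* and WT transcript levels in these same libraries, so their levels and fold changes are given as a description. How many of the 7 passed the test is given only beside the share of all genes tested, and no p-value of theirs was read.

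When sugar is plentiful, plant cells store it as starch in plastids, and glucose 6-phosphate enters the plastids of non-green cells through the translocators *GPT1* and *GPT2*. ADP-glucose pyrophosphorylase (AGPase), whose large subunits include *APL3*, makes the activated glucose for starch, and beta-amylases such as *BAM5* release maltose from starch. *GPT2*, *APL3* and *BAM5* are known as genes induced by sugars, whereas *ASN1*, *SEN1* and *DIN10* belong to the dark-inducible (DIN) genes, which are known to be induced in darkness and sugar depletion and repressed by sugars.

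The sequences before the annotated starts are shown for the 5 genes whose *mdf-1* and WT libraries did not overlap. Libraries also did not overlap for 73.2% of all genes tested, so this choice does not mark the 5 genes out. Each except that of *ASN1* is the stretch of 250 bases just before the RefSeq gene start in the TAIR10.1 genome. All are written 5′ to 3′ along the gene. For *ASN1* the bases next to the gene, which the neighbouring gene AT3G47341 covers, are left out, and only the outer 114 bases are printed. Capitals mark matches, on either strand, to the G-box (CACGTG), the ACTCAT element, the TATCCA element, the I-box (GATAAG) and the letters TATAAA.
*GPT2*, chr1:22824164-22824413, plus strand: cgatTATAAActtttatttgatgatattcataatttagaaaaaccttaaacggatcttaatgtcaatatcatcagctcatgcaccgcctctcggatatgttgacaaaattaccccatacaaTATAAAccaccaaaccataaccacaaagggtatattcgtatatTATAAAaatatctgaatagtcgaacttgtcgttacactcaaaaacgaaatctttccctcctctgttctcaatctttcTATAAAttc
*GPT1*, chr5:22260884-22261133, plus strand: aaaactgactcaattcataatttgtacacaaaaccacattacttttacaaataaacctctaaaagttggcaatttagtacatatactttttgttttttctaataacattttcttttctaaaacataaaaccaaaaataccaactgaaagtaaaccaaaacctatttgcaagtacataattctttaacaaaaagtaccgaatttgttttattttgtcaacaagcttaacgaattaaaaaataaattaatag
*APL3*, chr4:18259297-18259546, plus strand: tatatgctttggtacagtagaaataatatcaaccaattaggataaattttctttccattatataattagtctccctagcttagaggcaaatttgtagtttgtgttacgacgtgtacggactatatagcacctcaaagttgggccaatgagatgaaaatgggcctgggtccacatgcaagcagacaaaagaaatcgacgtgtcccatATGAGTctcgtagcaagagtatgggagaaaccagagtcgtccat
*BAM5*, chr4:8669527-8669776, minus strand: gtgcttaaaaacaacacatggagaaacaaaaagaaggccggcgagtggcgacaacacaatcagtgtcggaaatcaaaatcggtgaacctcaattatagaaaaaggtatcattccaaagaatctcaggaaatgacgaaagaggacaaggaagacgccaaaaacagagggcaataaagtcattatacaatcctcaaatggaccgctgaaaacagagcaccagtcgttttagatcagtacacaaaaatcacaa
*ASN1*, chr3:17441568-17441681, minus strand: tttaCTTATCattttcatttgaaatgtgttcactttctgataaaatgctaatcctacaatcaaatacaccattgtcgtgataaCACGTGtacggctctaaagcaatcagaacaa
None of the 5 motifs was shared by *GPT2* and *GPT1*. *GPT2* held TATAAA at 4 places, the nearest starting 9 bases before the gene, and 47.4% of the 27418 protein-coding genes with such a window held it at least once. The ACTCAT element, an element known from the proline dehydrogenase promoter, was found in *APL3* and in 12.3% of all windows. The full 250-base window of *ASN1* held the G-box, in common with 6.48% of all windows, the I-box (12.3%) and the TATCCA element (13.6%). The TATCCA element and an I-box lie in the part of this window that is not printed. The ACGT core of the G-box, which overlaps every G-box match, was found in *APL3*, *ASN1* and *DIN10* and in 44.1% of all windows. The I-box was also found in *SEN1*, and TATAAA in *DIN10*, whose sequences are not printed, while the windows of *GPT1* and *BAM5* matched no motif. These matches describe letters in a window and were not tested for function.

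The 3 *mdf-1* libraries held between 44738352 and 45418026 counted reads and the 3 WT libraries between 47175914 and 50088386, so that the lowest count of any of the 7 genes, 10 reads of *GPT2* in a WT library, was above the 3 reads that a count of 0 allows for counting error. In edgeR's quasi-likelihood test with Benjamini-Hochberg adjustment, 67.4% of the 22397 genes tested passed an adjusted p below 0.05, 33.5% as up-regulated in *mdf-1* and 33.9% as down-regulated, and the libraries of *mdf-1* and WT did not overlap for 73.2%. When library sizes were scaled by total counts, log2 fold changes had a median of -0.14 over all genes in place of 0.01, and 37.3% of the calls were up-regulated in place of 49.7%. *MDF* itself, listed in the table as DOT2, had 16.5 to 17.1 FPKM in *mdf-1* and 13.2 to 13.9 FPKM in WT, and reads counted over the whole gene do not check the insertion. Root markers were down-regulated for 13 of 14 genes, with summed levels of 637 to 898 FPKM in *mdf-1* and 1351 to 1514 FPKM in WT, and *AGP30*, a root arabinogalactan protein, had no read in 1 *mdf-1* library. Of 10 green shoot markers 3 were up-regulated and 3 down-regulated, with sums of 23685 to 29913 FPKM in *mdf-1* and 23816 to 25143 FPKM in WT, and 1 in place of 3 was down-regulated without WT replicate 3. The 6 seed storage markers were too low to be tested, at summed levels of 0.418 to 1.28 FPKM in *mdf-1* and 0.0708 to 2.89 FPKM in WT. How far the share of root tissue entered the values of the 7 genes was not tested, and in whole seedlings fewer cells of a type and less RNA per cell cannot be told apart. The spread between replicates was wider in *mdf-1*. Of 18313 genes with a mean count of at least 100, 27, 96 and 295 were over 2-fold lower in *mdf-1* replicates 1, 2 and 3 than in the mean of the other *mdf-1* libraries, and 178, 54 and 80 were over 2-fold higher. Among WT replicates 1, 2 and 3 these counts were 15, 17 and 47 lower and 14, 49 and 15 higher.

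Of the 7 genes, 3 passed the threshold as higher in *mdf-1*, set beside 33.5% of all genes tested, 1 passed as lower, set beside 33.9%, and 3 did not pass. With DESeq2, 4 passed as higher and 2 as lower, beside 7404 and 7502 of 22387 genes. Which of the 7 genes passed also changed under scaling by total counts, with the replicate block and with some libraries left out. All 7 passed the filter on low counts. The libraries of *mdf-1* and WT did not overlap for 5 of the 7, set beside 73.2% of all genes tested. These counts describe the choice of genes and nothing further was read from them.

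**Figure D1:**
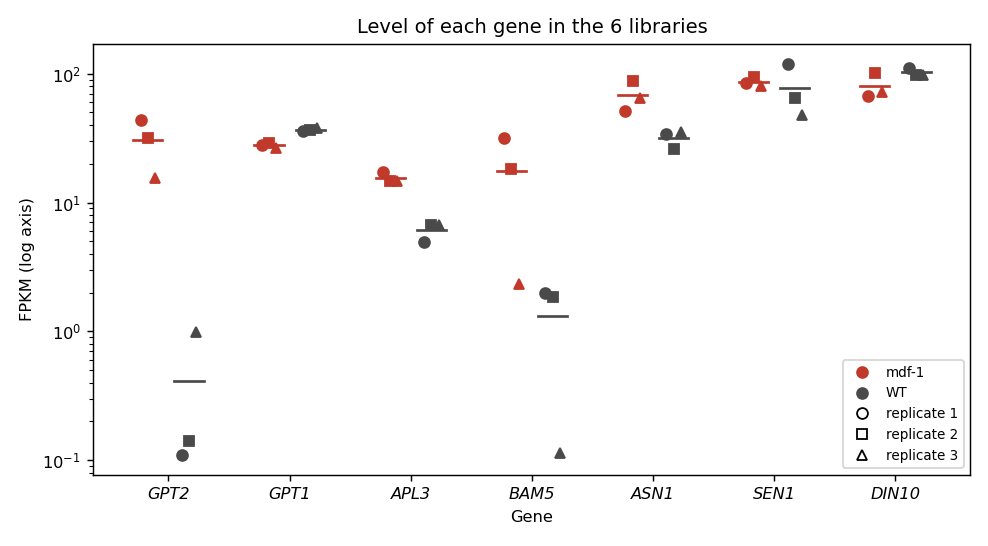
Level of each of the 7 genes in FPKM (read counts per gene length and library size, log axis) in the 3 *mdf-1* libraries (red, left) and the 3 WT libraries (grey, right), with a mark for each replicate and a line at each mean. The *mdf-1* libraries lie above all WT libraries for *GPT2*, *APL3*, *BAM5* and *ASN1* and below them for *GPT1*, and the genotypes overlap for *SEN1* and *DIN10*.

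*GPT2*, on chromosome 1 (22824414 to 22826902, plus strand, TAIR10), had 43.9, 31.6 and 15.4 FPKM in *mdf-1* replicates 1, 2 and 3, against 0.109, 0.142 and 0.990 FPKM in WT replicates 1, 2 and 3. All 3 *mdf-1* libraries were high and all 3 WT libraries were low, and the lowest *mdf-1* library was 15.5-fold above the highest WT library. The underlying counts were 3467, 2473 and 1249 reads in *mdf-1* and 10, 13 and 97 reads in WT. *GPT2* lay in the lowest 5.30% of tested genes by mean level in WT, whereas in *mdf-1* 81.8% of tested genes had a lower mean level. The log2 fold change was 6.17 ± 0.87 (standard error), a 71.8-fold difference, which was the 5th largest increase among the 18313 genes with a mean count of at least 100. Its size depended on WT replicate 3, without which the log2 fold change was 7.90. It was 6.48 without *mdf-1* replicate 3 and 8.23 with replicate 3 of both genotypes left out.

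*GPT1*, on chromosome 5 (22261134 to 22263936, plus strand), codes for the translocator that is needed in pollen and embryo sac development. It had 28.2, 28.9 and 26.6 FPKM in the *mdf-1* libraries and 35.8, 36.8 and 37.6 FPKM in the WT libraries. The WT libraries were all higher, by at least 1.24-fold, and the genotypes did not overlap. This gave a log2 fold change of -0.39 ± 0.05, and 54.9% of the genes tested had a larger change in either direction. Under scaling by total counts it was -0.54, against the shift of all genes to -0.14.

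The pair of translocators therefore differed in direction, and in WT also in level. In *mdf-1* *GPT2* made up 60.9%, 52.3% and 36.7% of the summed FPKM of *GPT1* and *GPT2* in replicates 1, 2 and 3, and in WT it made up 0.304%, 0.384% and 2.56%. The sum itself was 58.2 ± 15.2 FPKM (SD, n = 3) in *mdf-1* and 37.2 ± 1.37 FPKM (SD, n = 3) in WT, and even the lowest *mdf-1* library (42.0 FPKM) exceeded the highest WT library (38.6 FPKM). In *mdf-1* the mean levels of the 2 genes were not separated beyond their spread, since the range of *GPT2* (15.4 to 43.9 FPKM) enclosed that of *GPT1*.

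Of the 4 other plastid sugar phosphate translocators, 0 were up-regulated in *mdf-1* (beside 33.5% of all genes tested), 3 were down-regulated (beside 33.9%) and 1 was not called, with a median log2 fold change of -0.39. All 4 log2 fold changes were negative, so no threshold on p could add an up-regulated gene in this fit. The count up-regulated was also 0 with DESeq2. *PPT2*, a phosphoenolpyruvate translocator, had 1.42, 1.96 and 3.39 FPKM in *mdf-1* and 15.4, 15.7 and 17.2 FPKM in WT, a log2 fold change of -2.82 ± 0.29 (adjusted p = 0.000281). *PPT1*, the other phosphoenolpyruvate translocator, and *XPT*, the xylulose 5-phosphate translocator, fell by less, with log2 fold changes of -0.39 ± 0.07 (adjusted p = 0.0011) and -0.39 ± 0.07 (adjusted p = 0.00127). *TPT*, the triose phosphate translocator of green chloroplasts and the most abundant of the family, had 335 to 400 FPKM in *mdf-1* and 355 to 407 FPKM in WT, and the genotypes overlapped (log2 fold change -0.02 ± 0.09, adjusted p = 0.886).

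*APL3*, on chromosome 4 (18259547 to 18263468, plus strand), codes for an AGPase large subunit that is expressed mainly in non-green tissue. It had 17.3, 14.8 and 14.8 FPKM in *mdf-1*, against 4.94, 6.63 and 6.70 FPKM in WT. All *mdf-1* libraries were higher, and the lowest of them was 2.21-fold above the highest WT library. On the log2 scale the fold change was 1.36 ± 0.13, with extremes of 1.23 and 1.44 when single libraries were dropped.

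Of the 4 AGPase large subunit genes, *APL3* alone was more than 2-fold higher in *mdf-1*, and so was *APS2*, a small subunit gene of the same enzyme. *APS2*, which was chosen for naming after its values were seen, had 1.09 to 1.68 FPKM in *mdf-1* and 0.532 to 0.680 FPKM in WT (log2 fold change 1.13 ± 0.22, adjusted p = 0.00231). *APL1*, the main large subunit of leaves, had 56.3 to 74.1 FPKM in *mdf-1* and 106 to 110 FPKM in WT and was down-regulated (log2 fold change -0.70 ± 0.09, adjusted p = 0.000315). *APL4*, which like *APL3* is known as sugar-inducible, had 4.45 to 5.54 FPKM in *mdf-1* and 6.27 to 9.24 FPKM in WT (log2 fold change -0.55 ± 0.17, adjusted p = 0.0219), and its call was lost without *mdf-1* replicate 1 (adjusted p = 0.0901) or *mdf-1* replicate 2 (adjusted p = 0.0699). *APL2* was up-regulated by 0.39 ± 0.07 on the log2 scale (adjusted p = 0.00192), while the catalytic small subunit *APS1* had 112 to 118 FPKM in *mdf-1* and 101 to 108 FPKM in WT and did not pass the threshold (adjusted p = 0.0555), although it did so without *mdf-1* replicate 1 (adjusted p = 0.0283) and with DESeq2 (adjusted p = 0.0365). *APL3* made up 16.3 ± 2.98% (SD, n = 3) of the summed FPKM of the 4 large subunits in *mdf-1* and 4.72 ± 0.709% in the same number of WT libraries, and the sum was lower in *mdf-1*, at 97.0 ± 8.91 FPKM against 129 ± 3.96 FPKM in WT.

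In the wider list of starch synthesis, 5 of 17 tested genes other than *APL3* rose in *mdf-1* and 5 fell (29.4% each, beside 33.5% and 33.9% of all genes tested), with a median log2 fold change of -0.01 beside 0.01 for all genes. Under scaling by total counts 8 of them were down-regulated. *ISA2*, a subunit of the isoamylase that trims amylopectin, was up-regulated by 0.92 ± 0.07 (adjusted p = 2.14e-05), and *GBSS1*, which makes amylose, was down-regulated with a log2 fold change of -0.89 ± 0.12 (adjusted p = 0.000485).

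*BAM5*, on chromosome 4 (8666334 to 8669526, minus strand), codes for a beta-amylase found outside the plastid, largely in the phloem. It had 31.8, 18.3 and 2.32 FPKM in *mdf-1* replicates 1, 2 and 3, against 1.99, 1.83 and 0.114 FPKM in WT replicates 1, 2 and 3. Replicate 3 was the low library in both genotypes, and *mdf-1* replicate 3 exceeded the highest WT library only 1.17-fold, so the genotypes came close without overlapping. The counts were 3600, 2055 and 270 reads in *mdf-1* and 261, 241 and 16 reads in WT. The log2 fold change was 3.76 ± 1.33, and it ranged between 2.99 without *mdf-1* replicate 1 and 4.28 without *mdf-1* replicate 3. With replicate 3 of both genotypes left out it was 3.72.

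The 9 beta-amylase genes summed to 330 ± 11.6 FPKM (SD, n = 3) in *mdf-1* and 270.0 ± 8.67 FPKM (SD, n = 3) in WT. *BAM5* made up 9.33%, 5.55% and 0.729% of this sum in *mdf-1* replicates 1, 2 and 3 and 0.729%, 0.704% and 0.0411% in WT replicates 1, 2 and 3, so its share in *mdf-1* replicate 3 was close to that in WT replicate 1. The 2 plastid enzymes *BAM1* and *BAM3* carried most of the sum. *BAM1* had 72.4 to 85.8 FPKM in *mdf-1* and 40.3 to 45.1 FPKM in WT (log2 fold change 0.89 ± 0.08, adjusted p = 3.73e-05), and *BAM3*, the main beta-amylase of leaf starch breakdown at night, had 131 to 150 FPKM in *mdf-1* and 101 to 124 FPKM in WT (0.33 ± 0.08, adjusted p = 0.00821; 0.19 and adjusted p = 0.108 under scaling by total counts). *BAM7* and *BAM8*, beta-amylase-like nuclear transcription factors, were down-regulated with log2 fold changes of -0.70 ± 0.06 (adjusted p = 2.78e-05) and -0.43 ± 0.07 (adjusted p = 0.000716), as was the non-catalytic *BAM9* (-0.41 ± 0.12, adjusted p = 0.0161), whose call was lost when replicate 3 of both genotypes was left out (adjusted p = 0.0899). *BAM2*, *BAM4* and *BAM6* overlapped between the genotypes and were not called, with log2 fold changes of 0.02, 0.02 and 0.28.

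**Figure D2:**
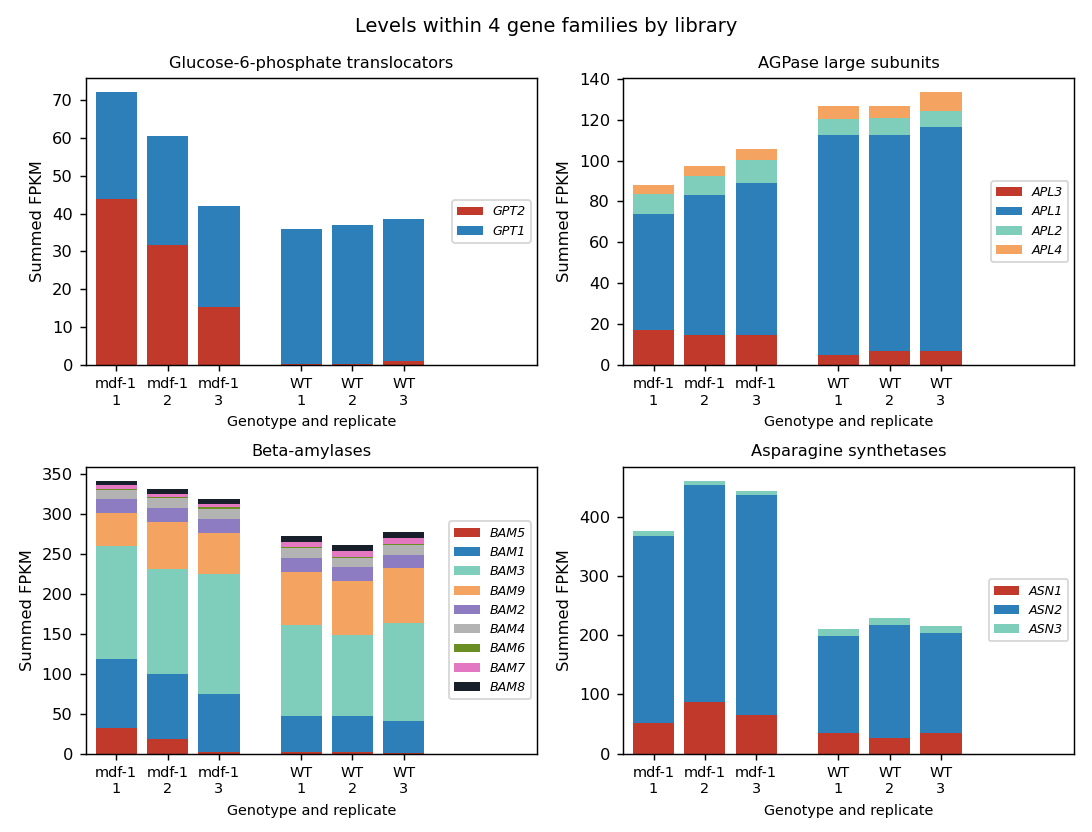
Summed FPKM of 4 gene families in each library, the 3 *mdf-1* libraries left of the 3 WT libraries, with 1 coloured block for each gene. The red blocks are *GPT2*, *APL3*, *BAM5* and *ASN1*, and *GPT2* takes 36.7% to 60.9% of its pair in *mdf-1* and 0.304% to 2.56% in WT.

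Starch breakdown genes other than *BAM5* were up-regulated for 13 of 24 (54.2%, beside 33.5% of all genes tested) and down-regulated for 4 (16.7%, beside 33.9%), with a median log2 fold change of 0.29. *AMY1*, a secreted alpha-amylase, had 19.9, 16.6 and 2.33 FPKM in *mdf-1* and 0.626, 0.538 and 0.305 FPKM in WT (log2 fold change 4.73 ± 1.02, adjusted p = 0.0116). As for *GPT2* and *BAM5*, replicate 3 was its lowest *mdf-1* library. *SEX4*, the phosphoglucan phosphatase that starch breakdown requires, varied little within a genotype, with 32.4 to 33.4 FPKM in *mdf-1* and 7.61 to 9.15 FPKM in WT (2.01 ± 0.08, adjusted p = 1.46e-06). The 2 genes with the largest decreases in the list were *BAM7* and the limit dextrinase *PU1* (-0.51 ± 0.08, adjusted p = 0.000537).

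*ASN1*, on chromosome 3 (17437840 to 17441431, minus strand), codes for a glutamine-dependent asparagine synthetase that is repressed by light and sugar. It had 51.0, 87.8 and 64.4 FPKM in *mdf-1*, against 34.2, 26.1 and 35.0 FPKM in WT. Every *mdf-1* library was higher than every WT library, by at least 1.46-fold, and *mdf-1* replicate 2 was the highest. The log2 fold change was 1.1 ± 0.23, and it was 0.87 without *mdf-1* replicate 2. Its neighbour AT3G47341 overlaps it by 11 bases on the opposite strand and had no read in any library.

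The asparagine synthetases as a family were led by *ASN2*, which is known to be induced by light. *ASN2* had 316 to 371 FPKM in *mdf-1* and 164 to 190 FPKM in WT and was up-regulated with a log2 fold change of 1.02 ± 0.09 (adjusted p = 3.7e-05). *ASN3* had 7.46 to 8.23 FPKM in *mdf-1* and 12.3 to 12.7 FPKM in WT and was down-regulated (-0.68 ± 0.06, adjusted p = 3.08e-05). The summed level of the 3 genes was 426 ± 45.4 FPKM in *mdf-1* and 218 ± 9.62 FPKM in WT, and the share of *ASN1* in it was 15.7 ± 2.92% (SD, n = 3) in *mdf-1* and 14.6 ± 2.80% (SD, n = 3) in WT, a difference smaller than the spread between replicates. Of the 15 other genes of asparagine and glutamine metabolism, 5 were up-regulated (33.3%, beside 33.5% of all genes tested) and 8 down-regulated (53.3%, beside 33.9%), and the median log2 fold change was -0.42. The count of up-regulated genes was 3 without *mdf-1* replicate 1 or 2 or without WT replicate 1 or 2. *GDH1*, a glutamate dehydrogenase, was up-regulated (0.68 ± 0.10, adjusted p = 0.000481), and *GLT1*, the NADH-dependent glutamate synthase, was down-regulated (-0.88 ± 0.10, adjusted p = 0.000136). *ASPGB1*, an asparaginase, had 1.90 to 4.09 FPKM in *mdf-1* and 4.96 to 6.22 FPKM in WT (-0.82 ± 0.26, adjusted p = 0.0249), and its call was lost without *mdf-1* replicate 2, WT replicate 1 or WT replicate 2 (adjusted p = 0.059, 0.0815 and 0.0505).

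*SEN1*, on chromosome 4 (16944878 to 16946266, plus strand) and listed in the table as STR15, codes for a rhodanese-like protein that marks senescence and darkness. It had 85.2, 94.4 and 80.4 FPKM in *mdf-1* replicates 1, 2 and 3, against 120, 64.3 and 47.4 FPKM in WT replicates 1, 2 and 3. The WT libraries spread 2.53-fold and enclosed all *mdf-1* libraries, which spread 1.17-fold. With all 6 libraries the log2 fold change was 0.17 ± 0.36, and it was -0.09 without WT replicate 3 and 0.64 without WT replicate 1, so its sign changed with single libraries.

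*DIN10*, on chromosome 5 (6833564 to 6836862, plus strand), codes for a protein of the raffinose synthase family. It had 67.7, 102 and 71.5 FPKM in *mdf-1*, against 111, 98.1 and 97.7 FPKM in WT. Of the *mdf-1* libraries, replicates 1 and 3 were lower than every WT library, but replicate 2 lay within the WT range. The log2 fold change was -0.34 ± 0.16, and it was -0.55 without *mdf-1* replicate 2. The gene AT5G20260 on the opposite strand overlaps *DIN10* by 82 bases, and it had at most 12 reads in any library, against at least 9037 reads of *DIN10*.

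Among 4 genes of the raffinose synthase family *DIN10* made up 44.0 ± 3.36% (SD, n = 3) of the summed FPKM in *mdf-1* and 58.7 ± 2.40% (SD, n = 3) in WT, where it was the most abundant of them in every library, while the sums were 181 ± 27.8 FPKM in *mdf-1* and 174 ± 12.8 FPKM in WT. *RS2*, a relative of alkaline alpha-galactosidases, had 87.3 to 105 FPKM in *mdf-1* and 47.9 to 60.8 FPKM in WT and was up-regulated (0.75 ± 0.11, adjusted p = 0.000564). *RS5*, the raffinose synthase induced by abiotic stress, had 6.22 to 6.85 FPKM in *mdf-1* and 15.2 to 15.3 FPKM in WT (-1.23 ± 0.05, adjusted p = 2.16e-06). *RS4*, the stachyose synthase, was near the lower limit, with 0.0141 to 0.0434 FPKM in *mdf-1* and 0.211 to 0.355 FPKM in WT (-3.35 ± 0.43, adjusted p = 0.000207). Of the 7 listed genes of raffinose family synthesis other than *DIN10*, 5 were down-regulated (71.4%, beside 33.9% of all genes tested) and 1 was up-regulated (14.3%, beside 33.5%), with a median log2 fold change of -1.47. These included the galactinol synthase genes *GOLS1*, with 11.8 ± 2.38 FPKM (SD, n = 3) in *mdf-1* and 32.8 ± 2.98 FPKM (SD, n = 3) in WT (-1.47 ± 0.14, adjusted p = 0.000101), and *GOLS4*, with 0.210 to 0.875 FPKM in *mdf-1* and 4.52 to 7.62 FPKM in WT (-3.23 ± 0.45, adjusted p = 0.000869).

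Of the 5 DIN genes beside *ASN1*, *SEN1* and *DIN10*, 1 was up-regulated and 1 down-regulated (20.0% each, beside 33.5% and 33.9% of all genes tested). *DIN4*, a subunit of the branched-chain keto acid dehydrogenase, had 41.7 to 46.3 FPKM in *mdf-1* and 25.0 to 33.5 FPKM in WT (0.60 ± 0.11, adjusted p = 0.00168), and *DIN9*, a mannose 6-phosphate isomerase, had 1.9 ± 0.19 FPKM (SD, n = 3) in *mdf-1* and 2.77 ± 0.314 FPKM (SD, n = 3) in WT (-0.54 ± 0.13, adjusted p = 0.00732). *DIN3*, another subunit of the same dehydrogenase, had 17.9 to 23.0 FPKM in *mdf-1* and 17.7 to 21.2 FPKM in WT, and its genotypes overlapped. *DIN11*, a dioxygenase of the 2-oxoglutarate-dependent type, had 84.9, 21.3 and 1.92 FPKM in *mdf-1* and 1.74, 6.10 and 1.86 FPKM in WT (3.49 ± 1.5, adjusted p = 0.0991). It passed the threshold without *mdf-1* replicate 3 (4.05, adjusted p = 0.0375) and with DESeq2 (3.48, adjusted p = 0.0131). *DIN2*, a beta-glucosidase, had 16.1, 10.3 and 1.24 FPKM in *mdf-1* and 10 to 16.6 FPKM in WT, and *mdf-1* replicate 3 was again the low library (-0.58 ± 0.87, adjusted p = 0.59).

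Of 16 other starvation-induced genes, 3 were up-regulated (18.8%, beside 33.5% of all genes tested), 5 were down-regulated (31.2%, beside 33.9%) and 8 were not called, with a median log2 fold change of 0.08. These counts moved with single libraries, to 1 up-regulated gene without *mdf-1* replicate 1 or 2 or WT replicate 2 or 3, and to 3 down-regulated genes without *mdf-1* replicate 1 or 3 or WT replicate 1 or 2. *PRODH1*, proline dehydrogenase, had 124 to 203 FPKM in *mdf-1* and 61.8 to 77.5 FPKM in WT (1.16 ± 0.21, adjusted p = 0.00317). *BZIP1*, a transcription factor of the starvation response, had 14.0 to 21.9 FPKM in *mdf-1* and 30.3 to 33.7 FPKM in WT (-0.85 ± 0.16, adjusted p = 0.00239), and *TPS11*, a trehalose 6-phosphate synthase-like protein, was down-regulated by a similar amount (-0.81 ± 0.11, adjusted p = 0.000377).

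Of 10 other sugar-induced genes, 6 were up-regulated (60.0%, beside 33.5% of all genes tested) and 3 down-regulated (30.0%, beside 33.9%), with a median log2 fold change of 0.48. At an adjusted p below 0.01, 3 were up-regulated. *MYB75*, an activator of anthocyanin synthesis, had 4.42 to 5.79 FPKM in *mdf-1* and 1.09 to 1.54 FPKM in WT (1.92 ± 0.18, adjusted p = 4.32e-05). *TPS5*, another trehalose 6-phosphate synthase-like gene, had 17.1 to 23.9 FPKM in *mdf-1* and 6.81 to 7.55 FPKM in WT (1.44 ± 0.13, adjusted p = 7.21e-05). In the opposite direction, *RFNR2*, a ferredoxin reductase of root plastids, had 25.9 to 31.5 FPKM in *mdf-1* and 62.7 to 75.3 FPKM in WT (-1.30 ± 0.10, adjusted p = 1.74e-05). Its decrease stood beside that of 13 of the 14 root markers given above, and the part of root tissue in it was not tested.

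**Figure D3:**
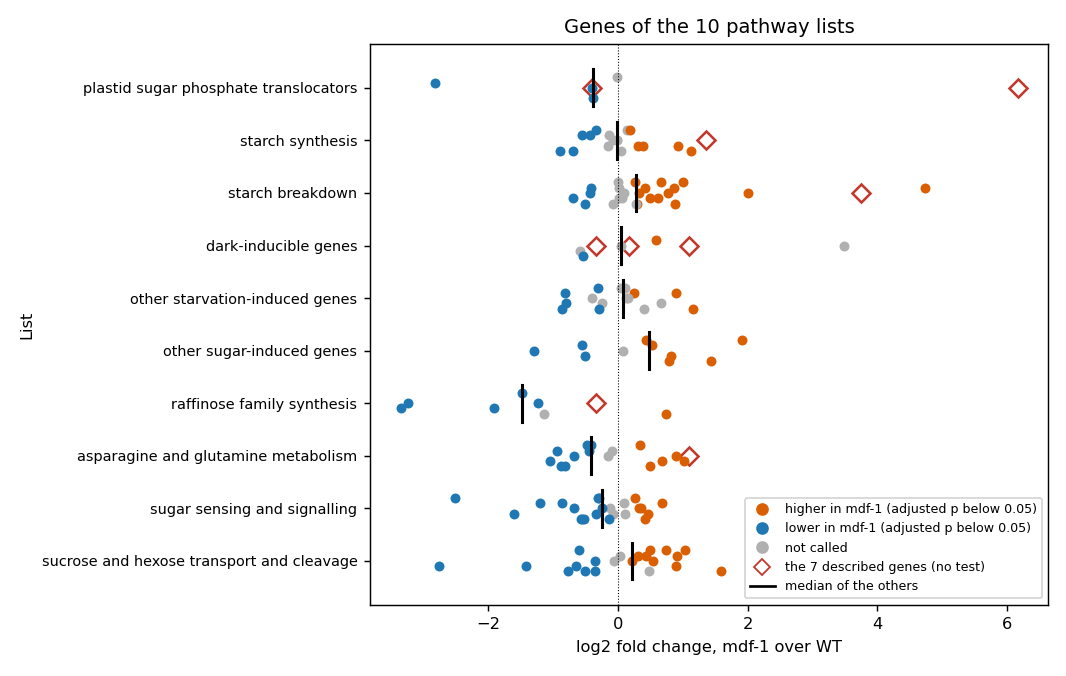
Log2 fold change of *mdf-1* over WT (x axis) for the tested genes of 10 lists (y axis), with 1 point for each gene. Orange and blue points passed the test as up- and down-regulated, grey points did not pass, black lines are medians without the 7 described genes, and red diamonds are the described genes, where *GPT2* stands at 6.17 and *BAM5* at 3.76.

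In sugar sensing and signalling, 6 of 23 genes rose in *mdf-1* (26.1%, beside 33.5% of all genes tested) and 13 fell (56.5%, beside 33.9%), with a median log2 fold change of -0.25. *HXK3*, a plastid hexokinase, had 0.730 to 1.24 FPKM in *mdf-1* and 4.95 to 5.85 FPKM in WT (-2.51 ± 0.19, adjusted p = 1.56e-05). *TPS1*, which makes the signal sugar trehalose 6-phosphate, had 3.46 to 5.01 FPKM in *mdf-1* and 12.0 to 13.4 FPKM in WT (-1.6 ± 0.13, adjusted p = 3.39e-05). The genes with the largest increases were *HXK2*, a mitochondria-associated hexokinase (0.68 ± 0.07, adjusted p = 6.13e-05), and *KING1*, a regulatory subunit related to those of the starvation kinase SnRK1 (0.46 ± 0.05, adjusted p = 0.000141).

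Of 21 tested genes of sucrose and hexose transport and cleavage, 10 were up-regulated (47.6%, beside 33.5% of all genes tested) and 8 down-regulated (38.1%, beside 33.9%), with a median log2 fold change of 0.22. Without WT replicate 1, 6 were up-regulated. *SUC1*, a sucrose importer, had 110 to 160 FPKM in *mdf-1* and 36.7 to 54.2 FPKM in WT (1.6 ± 0.19, adjusted p = 0.000502), whereas *SUC2*, the sucrose importer that loads the phloem, had 22.8 to 26.3 FPKM in *mdf-1* and 63.8 to 69.2 FPKM in WT (-1.41 ± 0.07, adjusted p = 2.33e-06). *SUS4*, a sucrose synthase, had 0.304 to 0.454 FPKM in *mdf-1* and 2.24 to 2.88 FPKM in WT (-2.77 ± 0.18, adjusted p = 7.77e-06). The hexose importer *STP13* passed the threshold with all 6 libraries (1.03 ± 0.35, adjusted p = 0.0448) and lost it without *mdf-1* replicate 1 or 2 or without any 1 of the WT libraries (adjusted p between 0.0671 and 0.121). It also lost it with no filter on low counts (adjusted p = 0.0757), under scaling by total counts (adjusted p = 0.0686) and with the replicate number as a block (0.97, adjusted p = 0.128). Over the 10 lists together, 48 of 137 tested genes other than the 7 were up-regulated (35.0%, beside 33.5% of all genes tested) and 52 were down-regulated (38.0%, beside 33.9%), with a median log2 fold change of 0.01.

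The mean levels ranked the 7 genes differently in the genotypes. In *mdf-1* the order was *SEN1* (86.6 ± 7.11 FPKM), *DIN10* (80.4 ± 18.8), *ASN1* (67.8 ± 18.6), *GPT2* (30.3 ± 14.3), *GPT1* (27.9 ± 1.19), *BAM5* (17.5 ± 14.8) and *APL3* (15.6 ± 1.43; SD, n = 3 each). Only *ASN1* and *GPT2* did not overlap among neighbours of this order. In WT the order was *DIN10* (102 ± 7.51 FPKM), *SEN1* (77.2 ± 37.9), *GPT1* (36.7 ± 0.917), *ASN1* (31.8 ± 4.92), *APL3* (6.09 ± 0.996), *BAM5* (1.31 ± 1.04) and *GPT2* (0.414 ± 0.499; SD, n = 3 each). Here *DIN10* overlapped with *SEN1* and *BAM5* with *GPT2*, and the other neighbours were separated. *GPT2* was thus the lowest of the 7 genes in WT by mean level and the 4th in *mdf-1*.

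The replicates of a genotype differed more for some of the 7 genes than for others. The standard deviation of log2 CPM (counts scaled to library size) among replicates was 1.99 in *mdf-1* and 2.24 in WT for *BAM5*, above 99.9% of the genes tested in *mdf-1* and a larger share in WT, and 0.78 in *mdf-1* and 1.61 in WT for *GPT2*, above 96.7% and 99.9%. The median gene had a standard deviation of 0.13 in *mdf-1* and 0.09 in WT. *SEN1* varied in WT (0.68, above 98.5% of genes) and not beyond the median in *mdf-1* (0.13). *GPT1* was steadier than the median gene in both genotypes, with standard deviations of 0.07 in *mdf-1* and 0.04 in WT.

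*BAM5* was lower in replicate 3 than in the mean of replicates 1 and 2 by 10.4-fold in *mdf-1* and by 14.8-fold in WT. Ranked by the smaller of the decreases in the 2 genotypes, this was the 4th largest among the 18313 genes with a mean count of at least 100, a comparison made after the values were seen. The genes that ranked beside it were *NATA1*, an ornithine acetyltransferase, the defensin genes *PDF1.2C* and *PDF1.2A*, whose near-identical sequences make the split of reads between them uncertain, and *FAMT*, a farnesoic acid methyltransferase. *NATA1* had 10363, 4567 and 543 reads in *mdf-1* replicates 1, 2 and 3 and 37, 236 and 1 reads in WT replicates 1, 2 and 3. In all, 17 genes were over 2-fold lower in replicate 3 of both genotypes and 0 genes were over 2-fold higher, and the labels do not say that replicates with the same number share a batch.

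*GPT2* moved in opposite directions in replicate 3, by 2.44-fold lower than replicates 1 and 2 in *mdf-1* and by 2.78 on the log2 scale higher in WT. The rise in WT replicate 3 was the 2nd largest of the 18313 genes, and 8 genes were over 2-fold lower in replicate 3 of *mdf-1* and over 2-fold higher in replicate 3 of WT. Of the 132 listed genes with such counts, *DIN11*, *DIN2*, *AMY1* and *GDH2*, a glutamate dehydrogenase, were over 2-fold lower in *mdf-1* replicate 3, and none was over 2-fold lower or higher in WT replicate 3. *GDH2* was chosen for naming after its values were seen. The galactinol synthases *GOLS2* and *GOLS4* were over 2-fold higher in *mdf-1* replicate 3, and *GOLS2* was named on the same ground.

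**Figure D4:**
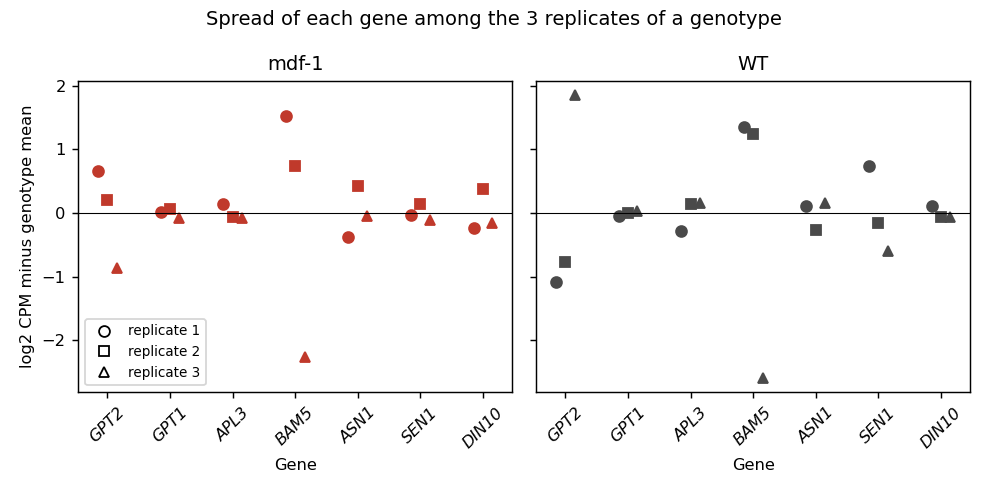
Log2 CPM of each of the 7 genes minus the mean of its genotype (y axis) in *mdf-1* (left) and WT (right), with a mark for each replicate. Replicate 3 (triangles) is the lowest point for *BAM5* in both panels, and for *GPT2* it is the lowest in *mdf-1* and the highest in WT.

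Genes most like each of the 7 were found by Pearson's correlation of log2 CPM over the 6 libraries, which is a description, since the libraries share a genotype difference that affects most genes. For *GPT2* they were AT5G18360, a TIR-NBS-LRR disease resistance protein (r = 0.999), AT2G32210, a cysteine-rich transmembrane protein (r = 0.998), and AT1G03040, a bHLH protein (r = 0.997), and 1381 genes exceeded 0.95. AT2G32210 had 15.2, 12.0 and 9.39 FPKM in *mdf-1* replicates 1, 2 and 3 and 1.77, 1.97 and 3.28 FPKM in WT replicates 1, 2 and 3. As for *GPT2*, replicate 3 was lowest in *mdf-1* and highest in WT, a likeness that its choice by correlation favours. For *BAM5* the gene was *BHLH137* (r = 0.994), with 84 genes above 0.95. For *GPT1* it was an unannotated locus with a transposase domain (r = 0.999), for *APL3* the ubiquitin hydrolase *UBP25* (r = 0.9996), and for *ASN1* the gene *SHL* (r = 0.998). *SEN1* and *DIN10* had few close partners, with 4 and 24 genes above 0.95, and the closest were the Mediator subunit *MED10A* (r = 0.985) and the chlorophyll synthesis enzyme *GSA2* (r = 0.993).

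Senescence genes were compared as markers of senescing leaf tissue, since *SEN1* marks senescence. *SAG12*, the defining protease of senescing leaves, was at 0 reads in 5 of 6 libraries and had a single read in the other. Of the 5 tested markers, 3 were up-regulated (60.0%, beside 33.5% of all genes tested) and 1 was down-regulated (20.0%, beside 33.9%). *SAG13* had 350, 318 and 60.4 FPKM in *mdf-1* and 6.24, 7.77 and 5.29 FPKM in WT (5.25 ± 0.84, adjusted p = 0.00431). *NYE1* and *SAG21* were also up-regulated, whereas *NAP* was down-regulated and *ORE1* was not called. The summed level of the 6 markers was 774 to 1153 FPKM in *mdf-1* and 334 to 388 FPKM in WT, and its part in the levels of the 7 genes was not tested.

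The fold changes of *GPT2*, *GPT1*, *APL3*, *BAM5*, *ASN1* and *DIN10* kept their direction when any 1 library was dropped, while that of *SEN1* did not. The direction of these 6 genes was also the same under DESeq2 and under the other scalings and filters.

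**Figure D5:**
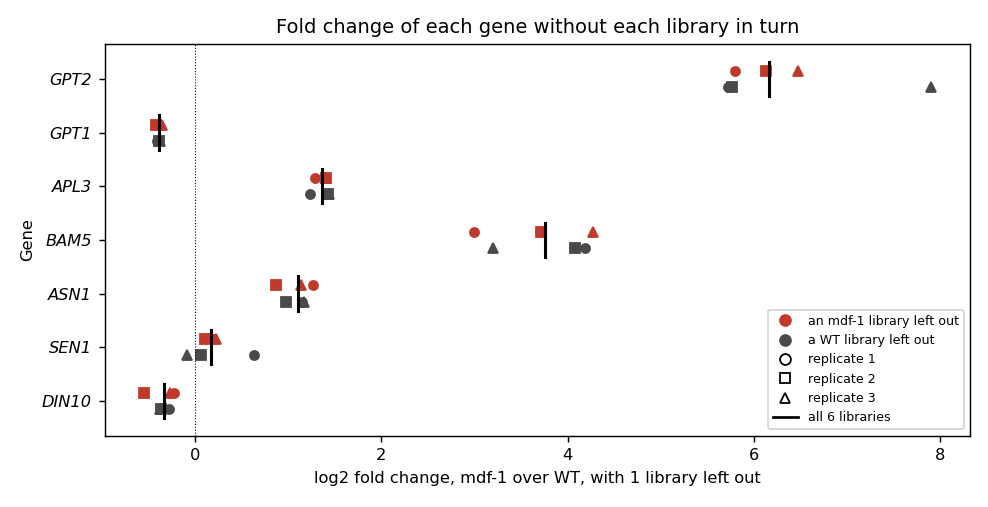
Log2 fold change of *mdf-1* over WT (x axis) for each of the 7 genes with 1 library left out, in red where an *mdf-1* library and in grey where a WT library was left out, with a mark for each replicate number and a black line for all 6 libraries. *GPT2* ranges between 5.72 and 7.90 and *BAM5* between 2.99 and 4.28, and only *SEN1* crosses 0.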

How the data were processed

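RNA from 12-day-old seedlings (1 µg per library, 3 libraries per genotype) was sequenced on an Illumina NovaSeq as paired ends. The authors removed low-quality reads and aligned the rest to TAIR10 with HISAT2. The submitters' processing notes also name fastp and featureCounts. The counting options are not given in the sources used here, so the handling of reads shared by overlapping or near-identical genes is unknown. The authors deposited raw read counts per gene without normalization, and FPKM values per gene length that use scaled library sizes, 0.943 to 0.969 times the total count in *mdf-1* and 1.04 to 1.06 times in WT. The deposited table also holds 6 columns of counts divided by size factors and 3 columns of the authors' comparison, which were not used.

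The counts of all 6 libraries were fitted with edgeR 4.0.16 in R 4.3.3 (filterByExpr, TMM, robust glmQLFit and glmQLFTest, no covariate). Calls were made where the p adjusted after Benjamini and Hochberg over all 22397 genes tested was below 0.05. Standard errors were derived from the fold change and the F statistic, and log2 CPM used a prior count of 2. Levels between genes were compared in FPKM only. On simulated data with 200 changed genes, 196 were called with the right sign, and 11 of 22197 unchanged genes were called. In the measured libraries 67.4% of the genes tested were called, a far larger share than was changed in the simulation. The error rate of the calls given here was therefore not tested. Start and end positions were identical to TAIR10.1 for all 182 listed genes, and the sequences come from RefSeq (TAIR10.1). Protein sequences were not used here. Tables and figures were made in Python 3.11.15 (pandas 2.3.3, matplotlib 3.10.9).

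The 7 genes, the pathway and marker lists, the tests and the rule for naming genes were chosen with earlier results of these data known. Named were the 7 genes, *MDF*, their closest relatives (1 gene is not reported here), and in each list the called genes with the 2 largest positive and 2 largest negative log2 fold changes among those whose genotypes did not overlap and whose mean count reached 100. For likeness of pattern, the 3 genes with the highest correlation to *GPT2* and the 1 highest for each other gene were named. Alternatives comprised DESeq2 1.42.0, scaling by RLE, upper quartile or total counts, omission of the filter or a minimum of 10 counts per library, a block for the replicate number, omission of single libraries, an adjusted p below 0.01, and CPM in place of FPKM for levels. Leaving out replicate 3 of both genotypes was added after the data were seen. Libraries of a genotype differed by more than counting noise and none was counted as a repeat. Because reads carried no molecular identifiers, limits from counts cover counting error only.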

Additional observations from a re-analysis of the deposited data

How the results depend on the processing

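All directions of the 7 genes were the same under DESeq2, the 3 other scalings, both filters and the replicate block, and in the settings that left libraries out only *SEN1* changed direction. The log2 fold change of *GPT2* ranged between 5.72 and 7.90 with single libraries dropped and was 8.23 with replicate 3 of both genotypes left out, a setting chosen after seeing the data. That of *GPT1* was -0.54 when scaled by total counts.

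Over all genes, 6608 to 7775 were up-regulated and 6807 to 7882 down-regulated with single libraries dropped, and 5561 and 9339 when scaled by total counts. That scaling gave 8 genes of starch synthesis down-regulated in place of 5, and up-regulated counts of 1 in place of 3 for starvation-induced genes, 3 in place of 5 for asparagine and glutamine metabolism and 6 in place of 10 for sucrose and hexose transport and cleavage. At an adjusted p below 0.01 the up-regulated counts were 1 for starvation-induced genes, 3 in place of 6 for sugar-induced genes, 3 for asparagine and glutamine metabolism and 6 for sucrose and hexose transport and cleavage, with 3 in place of 5 starvation-induced genes and 1 in place of 3 green shoot markers down-regulated. Where each library had to hold 10 or more counts of a gene, 3 genes of raffinose family synthesis were down-regulated in place of 5, since fewer were tested. DESeq2 called 2 DIN genes up-regulated in place of 1, and with replicate 3 of both genotypes left out 3 starvation-induced genes were down-regulated. With single libraries dropped, the up-regulated counts ranged between 1 and 2 for DIN genes, 1 and 4 for starvation-induced genes, 3 and 5 for asparagine and glutamine metabolism and 6 and 9 for sucrose and hexose transport and cleavage, and the down-regulated counts between 3 and 7 for starvation-induced genes and 1 and 3 for green shoot markers. The cause of these shifts was not tested, and an adjusted p below 0.01 calls fewer genes by construction.

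The labels number the replicates of both genotypes 1 to 3. Libraries with the same number deviated from their genotype means with correlations of 0.0443, -0.0035 and 0.0805. Between libraries with different numbers the correlations ranged from -0.0886 to 0.0484, so the highest was that between the libraries numbered 3. The numbers were not taken as pairs, and whether the libraries numbered 3 shared a batch was not tested. A fit with the replicate block gave 1 up-regulated starvation-induced gene in place of 3 and gave 7302 genes up-regulated and 7441 down-regulated. Not every library correlated best with its own number. The counts of *GPT2* and *BAM5* in WT reach down to 10 and 16 reads. Among replicates, the standard deviation of log2 CPM was 0.78 in *mdf-1* and 1.61 in WT for *GPT2*. For *BAM5* it was 1.99 in *mdf-1* and 2.24 in WT. How far low counts or this spread set the precision of their fold changes was not tested.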
